A study of Arabidopsis thaliana with 12 samples.

Results

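The NAC factors of leaf senescence and the NAC genes under miR164 were followed as a set of 10 genes out of 27827 probe sets, with 1 probe set per gene. They were given as locus codes by their known roles, with no threshold on a measured value, but the set was proposed with earlier results of these arrays known. All 10 were found, and their locus codes were present in the RefSeq gene table of Arabidopsis. The set holds NAP (AT1G69490), ORE1 (AT5G39610), ORS1 (AT3G29035), JUB1 (AT2G43000), ATAF1 (AT1G01720), ANAC032 (AT1G77450), ANAC102 (AT5G63790), NAC016 (AT1G34180), NAC1 (AT1G56010) and CUC2 (AT5G53950). RNA was measured on 12 arrays, 3 biological replicates of each of 4 groups, to ask how leaves respond to sudden darkness and whether that response needs an intact miRNA pathway. The groups were dcl1-9 leaves in darkness, dcl1-9 leaves in light, wild-type (WT) leaves in darkness and WT leaves in light. True leaves 5 to 7 of plants 4 to 5 weeks old were detached and kept on sterile water for 6 h, so leaves of all 4 groups had been cut from the plant, and the dark treatment began early in the light period. Both genotypes were in the Col-0 background. The dcl1-9 allele carries a T-DNA insertion in DCL1, came from the ecotype Wassilewskija and was backcrossed to Col-0. Homozygous mutants were picked by their phenotype from segregating progeny, so a mutant sample also stands for plants of altered development.

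NAC proteins are plant transcription factors that share a DNA-binding domain near the N-terminus. Several of them drive the orderly breakdown of an aging leaf, in which chlorophyll and proteins are dismantled and nitrogen is moved to other organs, and darkness is a standard way to bring that program on in detached leaves. The miRNA miR164 pairs with the mRNAs of a group of NAC genes and directs their cleavage. ORE1 is the member of that group best known in senescence: in WT plants miR164 declines as a leaf ages, downstream of the ethylene signaling protein EIN2, and ORE1 mRNA accumulates. DCL1 is the RNase III enzyme that cuts miRNA precursors, miR164 included.

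Values are linear array intensities, which can be compared between arrays for a given gene but not between genes. The array medians lay between 29.96 and 34.54, and 34.8% of probe sets had a mean intensity under 20, among them the members JUB1, NAC016 and NAC1. The number of arrays limits the precision. The DCL1 probe set (AT1G01040) read 36.5 to 67.4 in dcl1-9 arrays and 17.1 to 26.6 in WT arrays. The position of its probes relative to the insertion was not used here, so it does not check the genotype labels. Mesophyll marker genes, summed over 3 genes, gave 2433 to 3999 in the 12 arrays. Nearly all of this was RBCS1A, at 2313 to 3837, while CAB1 read 55.1 to 145.8 and LHCB2.3 11.2 to 45.8. Since intensities cannot be compared between genes, the size of the sum does not check the leaf label. Tests were made with limma on log2 intensities over all probe sets, and a gene is called changed at a Benjamini-Hochberg adjusted p under 0.05.

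NAP, ORE1 and ORS1 rose more than 7-fold in darkness in both genotypes, and ANAC032 fell. The sizes depend on the light intensities, which for NAP and ORS1 were 7.62 to 16.6, near the low end of the scale. With 16 added to each value before log2 the rises were 5.43-fold in dcl1-9 and 4.91-fold in WT leaves for NAP, 7.75-fold in dcl1-9 and 6.84-fold in WT leaves for ORE1, and 3.27-fold in dcl1-9 and 5.25-fold in WT leaves for ORS1, all still called. These were the 4 members called in the dark response, 3 higher and 1 lower of 10 in dcl1-9 leaves, where 10.8% of all probe sets were called higher and 12.9% lower. The same 4 were called in WT leaves, where 12.8% of all probe sets were higher and 14.5% lower. The median log2 fold-change of dark over light across the 10 members was 0.14 in dcl1-9 and 0.28 in WT leaves, and over all probe sets it was 0.06 in each genotype. The other 6 members, JUB1, ATAF1, ANAC102, NAC016, NAC1 and CUC2, did not pass the test in either genotype.

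NAP, also known as ANAC029, is a NAC factor that promotes leaf senescence and links it to abscisic acid. Its intensity was 125.3, 169.4 and 148.6 in dcl1-9 dark leaves, against 10.4, 16.6 and 15.4 in dcl1-9 light leaves. In WT leaves it was 80.1, 121.7 and 113.6 in darkness, against 8.41, 9.15 and 7.62 in light. The dark and light arrays did not overlap in either genotype, and the 3 WT light arrays were the lowest of the 12. NAP was 10.6-fold higher in darkness in dcl1-9 (log2 3.40, SE 0.22, adjusted p = 9.1e-08) and 12.4-fold higher in WT (log2 3.63, SE 0.22, adjusted p = 3.8e-08).

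ORE1, also known as ANAC092, is the miR164 target that promotes age-dependent cell death in leaves. It read 308.0, 368.9 and 383.9 in dcl1-9 dark leaves, against 26.1, 29.4 and 40.2 in dcl1-9 light leaves. In WT leaves it read 188.8, 293.3 and 275.0 in darkness, against 18.0, 24.5 and 25.8 in light. The groups were ordered in the same way as for NAP, and dark and light arrays were again far apart. The rise was 11.2-fold in dcl1-9 (log2 3.49, SE 0.22, adjusted p = 6.7e-08) and 11.02-fold in WT leaves (log2 3.46, SE 0.22, adjusted p = 5.1e-08). The difference between these responses was 0.03 on the log2 scale, dcl1-9 minus WT, with a 95% interval of -0.63 to 0.68, so differences of up to about that size in either direction could not be told from 0.

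ORS1 (ANAC059) is a paralog of ORE1 and also promotes senescence. Its intensities were 59.6, 78.0 and 56.7 in dcl1-9 dark leaves, against 7.64, 8.83 and 9.10 in dcl1-9 light leaves. In WT leaves they were 100.3, 148.2 and 92.8 in darkness, against 8.23, 8.88 and 7.82 in light. In light the genotypes overlapped near the low end of the scale, and in darkness every dcl1-9 array lay below every WT array, the reverse of the order of NAP and ORE1. ORS1 was 7.55-fold higher in darkness in dcl1-9 (log2 2.92, SE 0.20, adjusted p = 1.8e-07) and 13.4-fold higher in WT (log2 3.75, SE 0.20, adjusted p = 1.6e-08).

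**Figure D1:**
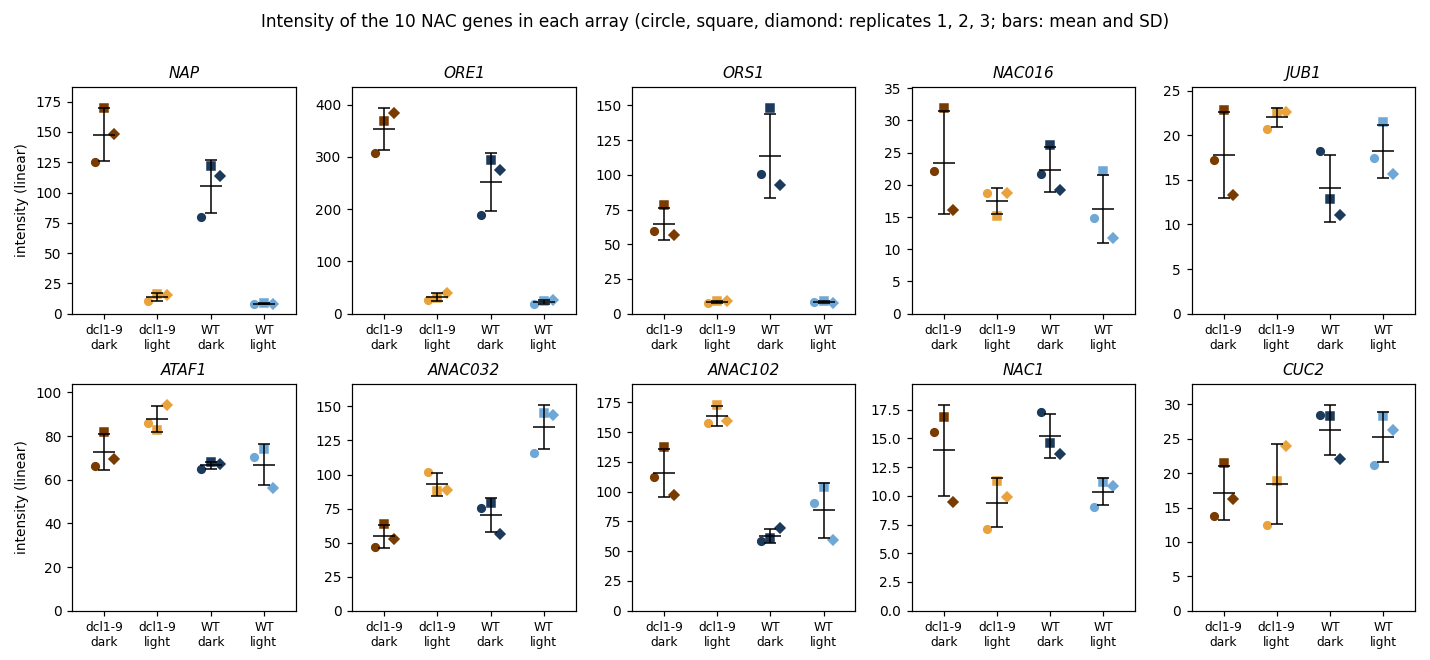
Intensity (linear scale, from 0) of each of the 10 NAC genes in the dcl1-9 dark, dcl1-9 light, WT dark and WT light groups, with a panel per gene. Symbols are the 3 arrays of a group and bars the mean and SD. NAP, ORE1 and ORS1 are high in both dark groups, with NAP at 125.3 to 169.4 in dcl1-9 dark and 80.1 to 121.7 in WT dark leaves, and ANAC102 is highest in dcl1-9 light leaves, at 157.7 to 172.9.

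ANAC032 belongs to the ATAF group of NAC factors, which respond to wounding, drought and other stresses, and it has itself been linked to senescence. It read 46.8, 63.9 and 52.8 in dcl1-9 dark leaves, against 102.1, 87.6 and 88.4 in dcl1-9 light leaves. In WT leaves it read 75.3, 79.2 and 56.1 in darkness, against 115.9, 144.9 and 143.6 in light. Dark and light arrays did not overlap in either genotype. ANAC032 was thus the member that fell, 1.71-fold in dcl1-9 (log2 -0.77, SE 0.18, adjusted p = 0.005) and 1.93-fold in WT leaves (log2 -0.95, SE 0.18, adjusted p = 0.00095).

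The other ATAF-type members gave smaller values. ATAF1, which activates an abscisic acid synthesis gene and represses the chloroplast regulator GLK1, had a mean of 72.6 ± 8.34 in dcl1-9 dark, 87.8 ± 5.91 in dcl1-9 light, 66.7 ± 1.60 in WT dark and 67.0 ± 9.51 in WT light leaves (SD, n = 3 each). Its dark response was log2 -0.28 in dcl1-9 (95% interval -0.61 to 0.06) and 0.00 in WT (-0.33 to 0.34). ANAC102, a stress-responsive gene known from seeds under low oxygen, had a dark response of log2 -0.51 in dcl1-9 (adjusted p = 0.084) and -0.39 in WT (adjusted p = 0.18). Of its WT light arrays, replicate 3 stood at 59.0 and the others at 90.1 and 103.6. Without that array ANAC102 was called lower in darkness in WT (log2 -0.62, adjusted p = 0.018) and in dcl1-9 (log2 -0.51, adjusted p = 0.029).

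JUB1, a NAC factor that delays senescence and represses gibberellin and brassinosteroid synthesis genes, had a mean of 17.8 ± 4.77 in dcl1-9 dark, 22.0 ± 1.08 in dcl1-9 light, 14.04 ± 3.74 in WT dark and 18.2 ± 2.98 in WT light leaves (SD, n = 3 each). Dark and light arrays overlapped in both genotypes, and the dark response was log2 -0.34 in dcl1-9 (adjusted p = 0.36) and -0.39 in WT (adjusted p = 0.27). NAC016, which promotes senescence and acts in drought responses, averaged 23.4 ± 7.99 in dcl1-9 dark, 17.6 ± 2.01 in dcl1-9 light, 22.4 ± 3.53 in WT dark and 16.2 ± 5.31 in WT light leaves (SD, n = 3 each). Its dark response was log2 0.36 in dcl1-9 (adjusted p = 0.40) and 0.50 in WT (adjusted p = 0.21). At these low intensities the 95% interval for NAC016 in WT leaves ran from -0.08 to 1.08, so a rise of more than 2-fold was not excluded by these arrays.

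NAC1 and CUC2 are miR164 targets with roles outside senescence, NAC1 in auxin-dependent lateral root formation and CUC2 in organ boundaries and the teeth of the leaf margin. NAC1 read 15.5, 16.9 and 9.43 in dcl1-9 dark leaves, against 7.10, 11.3 and 9.86 in dcl1-9 light leaves. In WT leaves it read 17.3, 14.6 and 13.6 in darkness, against 9.03, 11.2 and 10.9 in light. The WT dark and light arrays did not overlap and those of dcl1-9 did, because of dcl1-9 dark replicate 3. The fitted dark response of NAC1 was log2 0.55 in dcl1-9 (SE 0.25, adjusted p = 0.15) and 0.55 in WT (SE 0.25, adjusted p = 0.14). Without dcl1-9 dark replicate 3 it was 0.81 in dcl1-9 and was called (adjusted p = 0.037). CUC2 had a dark response of log2 -0.07 in dcl1-9 (95% interval -0.61 to 0.46) and 0.06 in WT (-0.48 to 0.60).

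By the criterion of the study's methods, which asks that the fold-change exceed 1.2 at its lower 90% bound, recomputed from the authors' group means and standard errors, the same 4 members were called. In dcl1-9 leaves 10.5% of all probe sets were then called higher and 12.6% lower, and in WT leaves 11.2% higher and 12.6% lower. The bounds of the rises were 7.60 for NAP, 8.70 for ORE1 and 5.19 for ORS1 in dcl1-9 leaves, and 7.96, 7.35 and 8.67 in the same order in WT leaves. For the fall of ANAC032 the bound was 1.39 in dcl1-9 and 1.54 in WT leaves.

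**Figure D2:**
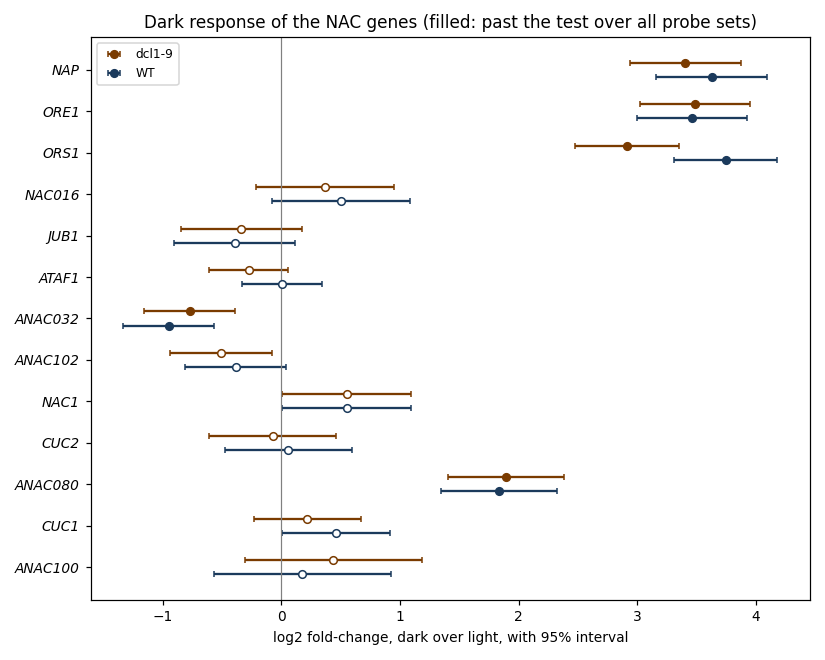
Log2 fold-change of dark over light with its 95% interval for the 10 members and for the other miR164-targeted genes ANAC080, CUC1 and ANAC100, in dcl1-9 and WT leaves. Filled points passed the test over all probe sets. NAP, ORE1, ORS1 and ANAC080 lie to the right in both genotypes, and the points of ORS1 lie farthest apart between genotypes, at 2.92 in dcl1-9 and 3.75 in WT.

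The dcl1-9 and WT leaves were compared next, within each light condition, to see which of these genes stood at another level in the mutant. In darkness 2 of 10 members were called, ANAC102 higher and ORS1 lower in dcl1-9, where 4.45% of all probe sets were called higher and 3.02% lower. With each array centred on its median that split over all probe sets was 2043 higher and 711 lower, in place of 1238 and 839. In light 1 of 10 members was called, ANAC102, which was higher in dcl1-9, where 5.92% of all probe sets were called higher and 3.33% lower. The median log2 fold-change of dcl1-9 over WT leaves was 0.07 in darkness and 0.22 in light over the members, and -0.12 in darkness and -0.14 in light over all probe sets.

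ANAC102 read 112.0, 137.8 and 97.5 in dcl1-9 dark leaves, against 58.1, 61.1 and 69.2 in WT dark leaves. In light it read 157.7, 172.9 and 159.1 in dcl1-9, against 90.1, 103.6 and 59.0 in WT leaves. Every dcl1-9 array lay above every WT array of the same condition. The difference was 1.83-fold in darkness (log2 0.87, SE 0.20, adjusted p = 0.02) and 1.99-fold in light (log2 0.99, SE 0.20, adjusted p = 0.0097). The call in light was kept under every alternative tried. The call in darkness was lost without WT dark replicate 1 (adjusted p = 0.062), without dcl1-9 dark replicate 1 (adjusted p = 0.078) and without dcl1-9 dark replicate 2 (adjusted p = 0.089).

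ORS1 in darkness was 1.74-fold lower in dcl1-9 than in WT leaves (log2 -0.80, SE 0.20, adjusted p = 0.031), with no overlap of the arrays given above. That call was lost without WT dark replicate 1 (adjusted p = 0.053), WT dark replicate 2 (0.094), dcl1-9 dark replicate 1 (0.13) or dcl1-9 dark replicate 3 (0.082), with log2 values between -0.94 and -0.59 over all arrays left out in turn. In light the difference of ORS1 was log2 0.03 (95% interval -0.40 to 0.47).

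NAP and ORE1 read higher in dcl1-9 than in WT leaves in each condition without passing the test in the main fit. For NAP the log2 fold-change of dcl1-9 over WT was 0.50 in darkness (SE 0.22, adjusted p = 0.16) and 0.73 in light (SE 0.22, adjusted p = 0.052). For ORE1 it was 0.51 in darkness (SE 0.22, adjusted p = 0.16) and 0.48 in light (SE 0.22, adjusted p = 0.16). The arrays of the genotypes did not overlap for either gene in either condition, the nearest being ORE1 in light, at 26.1 in dcl1-9 and 25.8 in WT leaves. The NAP difference in light was near the threshold. It was called with quantile normalization (log2 0.97, adjusted p = 0.0098), median centring (adjusted p = 0.03) and without probe sets under a mean of 20 (adjusted p = 0.04), as well as without WT dark replicate 1 (adjusted p = 0.044) or dcl1-9 light replicate 1 (adjusted p = 0.024). It was not called with 16 added before log2 (log2 0.30, adjusted p = 0.22) or with the compared groups alone (adjusted p = 0.11). With the replicate number as a block, NAP was called in light (adjusted p = 0.0097). ORE1 was then called in darkness (adjusted p = 0.027) and in light (adjusted p = 0.031). In all, NAP in light was called under 6 of 19 alternatives.

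ANAC032 and ATAF1, which belong to the same NAC group as ANAC102, went opposite ways in light without passing the test. ANAC032 had a log2 fold-change of -0.36 for dcl1-9 over WT in darkness (adjusted p = 0.22) and -0.54 in light (SE 0.18, adjusted p = 0.074). With quantile normalization it was called in light (log2 -0.64, adjusted p = 0.036). ATAF1 had 0.12 in darkness (adjusted p = 0.66) and 0.40 in light (SE 0.16, adjusted p = 0.12). For both genes the genotypes overlapped in darkness and did not overlap in light. ATAF2 (AT5G08790), a further ATAF gene from the list of other NAC genes below, was called higher in dcl1-9 in both conditions. Its log2 fold-change was 0.82 in darkness (adjusted p = 0.046) and 0.79 in light (adjusted p = 0.048). Both calls were near the threshold, and they were lost under 9 alternatives in darkness and 13 in light. JUB1, NAC016 and NAC1 lay between -0.16 and 0.34 on the log2 scale in both conditions, with adjusted p of 0.38 or more.

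CUC2 read 13.8, 21.5 and 16.3 in dcl1-9 dark leaves, against 28.4, 28.4 and 22.1 in WT dark leaves. In light it read 12.4, 18.9 and 24.0 in dcl1-9, against 21.2, 28.3 and 26.3 in WT leaves. The genotypes did not overlap in darkness and overlapped in light. The log2 fold-change of dcl1-9 over WT leaves was -0.63 in darkness (SE 0.25, adjusted p = 0.13) and -0.50 in light (SE 0.25, adjusted p = 0.21), neither past the test. Whole leaves were measured, so fewer cells of a type and less RNA per cell cannot be told apart. Intensities of 6 genes listed for the shoot apex and organ boundary were summed. The sums were 119 to 152 in dcl1-9 dark and 97.6 to 113 in dcl1-9 light arrays. In WT arrays they were 184 to 259 in darkness and 177 to 193 in light. Since intensities cannot be compared between genes, the sums do not measure the share of such cells. FIL, which is not among the defining markers, made up much of them. It read 54.2 to 72.4 in dcl1-9 dark, 42.8 to 53.2 in dcl1-9 light, 98.4 to 179 in WT dark and 92.1 to 101 in WT light arrays. Of these 6, FIL was called lower in dcl1-9 in both conditions and KNAT1 in light, where its call (adjusted p = 0.036) was lost under 7 alternatives, while the defining markers read 16.9 to 33.6 for STM, 7.77 to 15.1 for WUS and 3.93 to 9.98 for CLV3 over the 12 arrays and were not called between genotypes. The part of such cells in the CUC2 values was not tested.

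**Figure D3:**
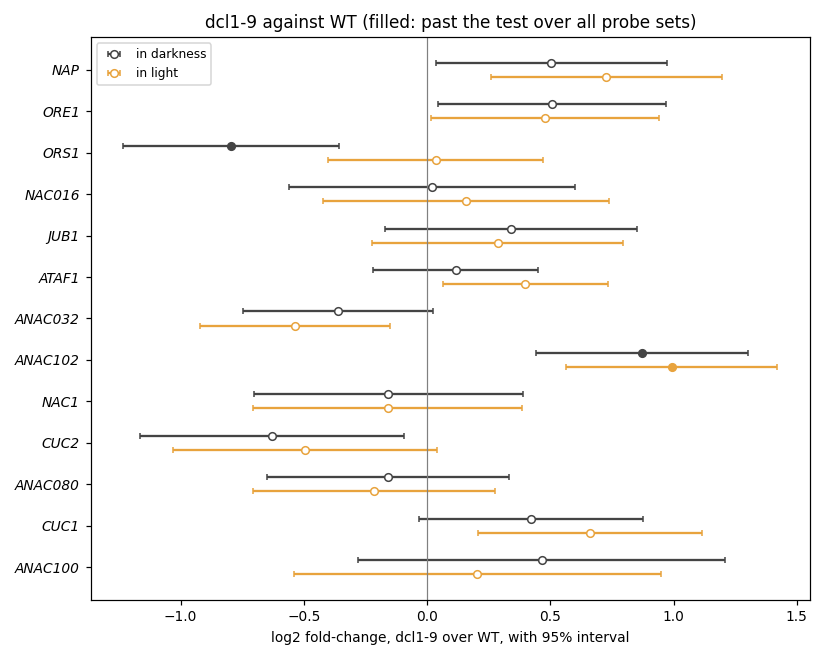
Log2 fold-change of dcl1-9 over WT leaves with its 95% interval, in darkness and in light, for the 10 members and ANAC080, CUC1 and ANAC100. Filled points passed the test over all probe sets. ANAC102 lies to the right in both conditions, at 0.87 in darkness and 0.99 in light, and ORS1 lies to the left in darkness, at -0.80, and near 0 in light.

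Whether darkness acted differently in the genotypes was tested as the difference of the responses, dcl1-9 minus WT. Of the 10 members 0 were called, where 0.0144% of all probe sets were called higher and 0.0898% lower. At an unadjusted p under 0.05 there was 1 member, ORS1, with a difference of log2 -0.83 (SE 0.29, 95% interval -1.45 to -0.21, unadjusted p = 0.012, adjusted p = 0.59). The difference was -0.22 for NAP (95% interval -0.89 to 0.44) and 0.18 for ANAC032 (-0.37 to 0.72). For the remaining members the differences lay between -0.28 and 0.05, each with an interval that includes 0. The smaller rise of ORS1 in dcl1-9 leaves is therefore not established over all probe sets.

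The rest of the miR164 module was read from the other NAC genes that miR164 targets, CUC1 (AT3G15170), ANAC080 (AT5G07680) and ANAC100 (AT5G61430), and from the MIR164 genes. ANAC080 read 58.5, 41.1 and 44.5 in dcl1-9 dark leaves, against 14.4, 10.1 and 14.3 in dcl1-9 light leaves. In WT leaves it read 44.5, 54.6 and 61.2 in darkness, against 11.2, 17.4 and 16.7 in light. Dark arrays lay well above light arrays in both genotypes. The rise was 3.72-fold in dcl1-9 (log2 1.90, SE 0.23, adjusted p = 2.7e-05) and 3.57-fold in WT leaves (log2 1.84, SE 0.23, adjusted p = 2.7e-05), and ANAC080 did not differ past the test between genotypes (log2 -0.16 in darkness and -0.22 in light).

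CUC1, which sets organ boundaries together with CUC2, averaged 46.0 ± 11.4 in dcl1-9 dark, 38.7 ± 2.45 in dcl1-9 light, 33.7 ± 4.13 in WT dark and 24.7 ± 4.47 in WT light leaves (SD, n = 3 each). Its log2 fold-change of dcl1-9 over WT was 0.42 in darkness (adjusted p = 0.22) and 0.66 in light (adjusted p = 0.063), opposite in sign to that of CUC2. ANAC100 stayed between 5.09 and 17.5 in all arrays and was called in no comparison. CUC3 (AT1G76420), the CUC gene that miR164 is not known to target, read 11.6 to 19.3 and differed between genotypes by log2 -0.08 in darkness and -0.23 in light, neither called.

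None of the MIR164 genes was called in any of the 5 comparisons. MIR164A (AT2G47585) read 5.30 to 7.69 in dcl1-9 arrays and 6.12 to 8.62 in WT arrays. MIR164B (AT5G01747) read 9.25 to 18.2 in dcl1-9 and 7.23 to 11.3 in WT arrays, with a log2 fold-change of dcl1-9 over WT of 0.55 in darkness (adjusted p = 0.21) and 0.62 in light (adjusted p = 0.14). MIR164C (AT5G27807) read 11.6 to 25.6 in dcl1-9 and 18.9 to 30.1 in WT arrays, with -0.25 in darkness (adjusted p = 0.53) and -0.57 in light (adjusted p = 0.14). The probe sets read transcripts of these genes and not the mature miRNA, and MIR164A and MIR164B lie among the dim probe sets, so small changes were not detectable here. For the dark response the 95% interval of MIR164A was -0.43 to 0.57 in dcl1-9 and -0.51 to 0.49 in WT leaves.

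**Figure D4:**
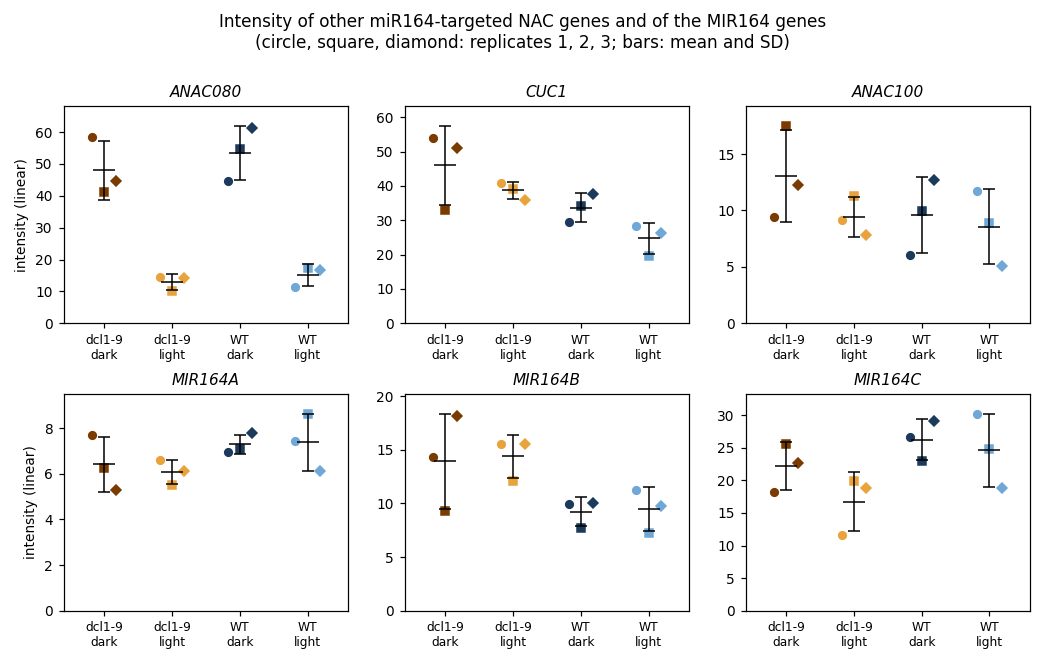
Intensity (linear scale, from 0) of ANAC080, CUC1 and ANAC100 and of MIR164A, MIR164B and MIR164C in the dcl1-9 dark, dcl1-9 light, WT dark and WT light groups. Symbols are the 3 arrays of a group and bars the mean and SD. ANAC080 is at 41.1 to 58.5 in dcl1-9 dark and 44.5 to 61.2 in WT dark leaves, above all light arrays, and the MIR164 genes show no such separation.

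The genes around these factors were read as lists. Of 14 other NAC genes linked to senescence or stress, 3 rose and 0 fell in darkness in dcl1-9, and 7 rose and 0 fell in WT leaves, where 10.8% of all probe sets rose in dcl1-9 and 12.8% in WT leaves. The list medians were log2 0.21 in dcl1-9 and 0.60 in WT, against 0.06 over all probe sets in each genotype. ANAC055, which acts in jasmonate and abscisic acid responses, had log2 1.66 in dcl1-9 (adjusted p = 0.0016) and 2.53 in WT leaves (adjusted p = 3.9e-05). RD26, a drought-induced factor, had 0.81 in dcl1-9 (adjusted p = 0.01) and 1.58 in WT leaves (adjusted p = 4.7e-05). ANAC046, an activator of chlorophyll breakdown genes, was called in WT (1.18, adjusted p = 0.0018) and not in dcl1-9, and it was 2.10-fold lower in dcl1-9 than in WT leaves in darkness (log2 -1.07, adjusted p = 0.018). ANAC047, known from leaf movement under flooding, was called in WT (1.01, adjusted p = 0.0021) and was 2.10-fold higher in dcl1-9 than in WT leaves in light (log2 1.07, adjusted p = 0.0087). The difference of the responses was called for 0 of these 14 genes, where 0.0144% of all probe sets were called higher and 0.0898% lower. Beside such shares, 0 calls say little about this list. The RD26 call in dcl1-9 was lost without dcl1-9 dark replicate 3 (adjusted p = 0.051), and the genotype call of ANAC046 without WT dark replicate 3 or dcl1-9 dark replicate 1. Among all 114 probe sets annotated as NAC genes, the members included, 10 rose and 5 fell in dcl1-9 leaves, or 8.77% and 4.39%. In WT leaves 14 rose and 4 fell, or 12.3% and 3.51%. Over all probe sets 10.8% rose and 12.9% fell in dcl1-9, and 12.8% rose and 14.5% fell in WT leaves. Most of the family was thus not called, and the shares that rose were not above those of all probe sets.

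Of 9 regulators known to act upstream, 7 rose in dcl1-9 and 6 in WT leaves, and 0 fell, where 10.8% of all probe sets rose and 12.9% fell in dcl1-9, and 12.8% rose and 14.5% fell in WT leaves. The list medians were log2 0.95 in dcl1-9 and 0.76 in WT leaves, against 0.06 over all probe sets in each genotype. EIL1 and EIN3, the transcription factors of ethylene signaling, had 1.71 and 1.03 in dcl1-9 (adjusted p = 0.00013 and 0.0041), and 1.59 and 1.38 in WT leaves (adjusted p = 0.00019 and 0.00037). The photoreceptor gene PHYB had 0.68 in dcl1-9 (adjusted p = 0.011) and 1.04 in WT leaves (adjusted p = 0.00043). EIN2 was called in WT leaves (0.78, adjusted p = 0.0061). In light EIN3, PHYB and EIN2 were higher in dcl1-9 than in WT leaves, by log2 0.93, 0.92 and 0.64 (adjusted p = 0.027, 0.008 and 0.049). Of these, the call of PHYB was kept with every array left out in turn, that of EIN3 was lost in 3 such fits, and that of EIN2 was near the threshold and was lost in 14 of all alternatives.

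Genes reported as direct targets of these NAC factors include both activated and repressed genes. Counts and medians over such a mixed list cannot show whether the factors were active. Of 11, 1 rose and 1 fell in dcl1-9, or 9.09% each way, which is not above the 10.8% and 12.9% of all probe sets. In WT leaves 3 rose and 3 fell, or 27.3% each way, beside 12.8% and 14.5% of all probe sets, with list medians of log2 -0.14 in dcl1-9 and -0.18 in WT. Without WT light replicate 1 the WT counts were 1 higher and 2 lower. RNS3 and BFN1 are nuclease genes that ORE1 is known to activate. RNS3 had log2 -1.11 in dcl1-9 (adjusted p = 0.0092, lost without dcl1-9 dark replicate 3) and -1.57 in WT leaves (adjusted p = 0.00065). BFN1 had -0.89 in WT leaves (adjusted p = 0.0039) and was not called in dcl1-9 (log2 -0.30, adjusted p = 0.35). ACS2, also listed for ORE1, was called in neither genotype, with log2 0.28 in dcl1-9 and -0.18 in WT leaves. NCED3, an abscisic acid synthesis gene that ATAF1 activates, rose by log2 1.32 in dcl1-9 (adjusted p = 0.00038) and 1.38 in WT leaves (adjusted p = 0.00021). It was lower in dcl1-9 than in WT leaves in darkness (log2 -0.91, adjusted p = 0.023) and in light (log2 -0.86, adjusted p = 0.027), and each of these calls was lost under 4 alternatives. GA3OX1, a gibberellin synthesis gene that JUB1 represses, read 12.6 to 19.1 in dcl1-9 dark and 11.3 to 14.8 in dcl1-9 light leaves, against 76.1 to 85.2 in WT dark and 36.1 to 71.5 in WT light leaves. It was 5.16-fold lower in dcl1-9 than in WT leaves in darkness (log2 -2.37, adjusted p = 0.00014) and 3.68-fold lower in light (log2 -1.88, adjusted p = 0.0007). DWF4, a brassinosteroid synthesis gene that JUB1 also represses, was lower in dcl1-9 in darkness (log2 -0.89, adjusted p = 0.023), a call lost under 4 alternatives. The dark response of GA3OX1 in WT leaves was log2 0.78 (adjusted p = 0.025). That call was lost when any of 4 WT arrays was left out, light replicates 1 and 3 and dark replicates 2 and 3.

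Of 12 chlorophyll breakdown and senescence genes, 5 rose and 2 fell in dcl1-9, where 10.8% of all probe sets rose and 12.9% fell. In WT leaves 7 rose and 1 fell, where 12.8% of all probe sets rose and 14.5% fell. The list medians were log2 0.54 in dcl1-9 and 0.86 in WT leaves. SEN1 and SEN5, genes that respond to darkness and sugar, had 6.71 and 5.58 in dcl1-9, and 7.33 and 6.63 in WT leaves, all with adjusted p of 2.6e-09 or less. SGR2, a relative of the chlorophyll-degrading SGR1, had 1.53 in dcl1-9 (adjusted p = 0.01, lost without dcl1-9 light replicate 1) and 2.23 in WT leaves (adjusted p = 0.00057). RCCR, which acts late in chlorophyll breakdown, fell by 1.35 on the log2 scale in dcl1-9 (adjusted p = 9.9e-06) and by 1.71 in WT leaves (adjusted p = 8.2e-07). SAG13 also fell in dcl1-9 (log2 -1.45, adjusted p = 0.017, lost under 3 alternatives). The senescence genes SAG12 and SAG29 were called in darkness in neither genotype. In this list 0 genes were called between genotypes in either condition. Over all probe sets 4.45% were called higher and 3.02% lower in darkness, and 5.92% higher and 3.33% lower in light. Beside such shares, 0 calls in a list of 12 genes say little. These lists were chosen with earlier results of these arrays known, and their counts are a description.

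**Figure D5:**
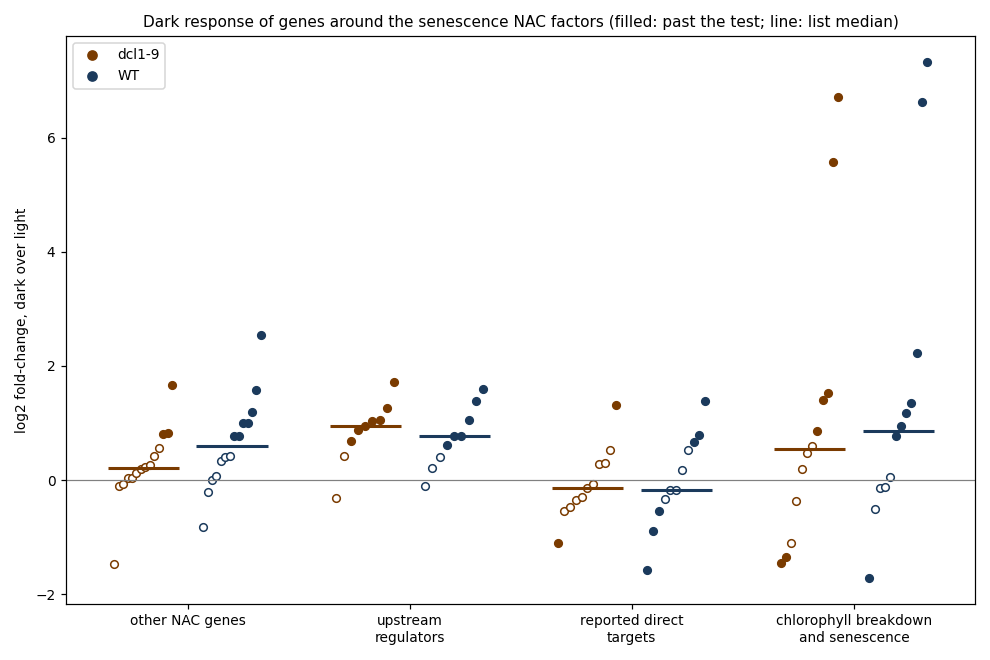
Log2 fold-change of dark over light for each gene of 4 lists (other NAC genes, upstream regulators, reported direct targets, chlorophyll breakdown and senescence genes) in dcl1-9 and WT leaves. Filled points passed the test over all probe sets, and lines are list medians. The medians of the upstream regulators are 0.95 in dcl1-9 and 0.76 in WT, and those of the reported targets lie below 0 in both genotypes. The reported targets mix activated and repressed genes, so their median has no simple reading.

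For NAP, ORE1, ORS1 and NAC1, the most similar genes were taken as the 3 highest Pearson correlations of log2 intensity over the 12 arrays, among 18141 probe sets with a mean of at least 20. These arrays fall into 4 groups that all genes share, so genes with large dark responses score high, and no p is given. The nearest to NAP were the ethylene receptor gene ERS1 (r = 0.995), the arabinofuranosidase gene ASD1 (0.995) and ORE1 (0.993). The nearest to ORE1 were NAP (0.993), AT5G62280 (0.991), which encodes a protein of unknown function, and the beta-galactosidase gene BGAL1 (0.989). The nearest to ORS1 were AT4G19420 (0.994), a gene of a family that acts on pectin, AT1G23050 (0.993) and the ethylene synthesis gene ACS8 (0.988). For NAC1 the values were lower, with the casein kinase gene CKL4 (0.918), the cation exchanger gene CCX4 (0.910) and AT5G66810 (0.909). NAP and ORE1 are thus among each other's 3 nearest genes on these arrays, and ORS1 is not among them.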

How the data were processed

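Intensities of 12 arrays were analysed. The authors' deposited intensities are linear dChip expression indices from perfect-match probes of Arabidopsis Gene 1.1 ST arrays, normalized to a baseline array with an invariant set and grouped by gene with Brainarray version 15, so changes shared by most genes are scaled away. Quality was checked by the authors in Affymetrix Expression Console. The authors' deposited table of comparisons also gave other values, a weighted mean and a standard error per group, which were used for the recomputed lower bound of the fold-change, a ratio. Its columns of fold-changes and bounds were not used. The genome build is not given in the sources used here.

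Intensities under 1 were set to 1, log2 was taken, and limma 3.58.1 in R 4.3.3 was fitted to the 4 groups over all 27827 probe sets with no filter, an intensity trend and 8 residual degrees of freedom. Intervals are 95%. Data were also simulated for the WT dark response over 27827 genes. Of 100 genes changed by log2 1, 51% were called, and of 100 changed by log2 2, 90%. There were 12 false calls among the genes left unchanged. Far fewer genes were changed there than were called in the real WT dark response, 3575 higher and 4037 lower. The adjusted p depends on that number, so these shares do not give the recovery in the real data. Alternatives were a fit without each array in turn, a replicate block, a fit to just the groups compared, variances free of the trend, a minimum mean intensity of 20, quantile normalization or centring on array medians, and 16 added to each value before log2. Locus codes were looked up in a RefSeq gene table.

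All 10 members and the miR164 genes are named. From the other lists of related genes, up to 4 genes with the largest WT dark responses past the test are named, and for NAP, ORE1, ORS1 and NAC1 the 3 best correlated genes. ACS2, SAG12, SAG13, SAG29, FIL, KNAT1, DWF4, ATAF2 and the mesophyll genes were named after their values were seen. The members and lists were chosen with earlier results of these data known. Of the remaining marker lists, guard cell genes (3) gave 0 calls in dcl1-9 and 2 higher and 1 lower in WT leaves for the dark response. In light 1 of them was higher in dcl1-9 than in WT leaves. Phloem companion cell genes (2) gave 0 calls in all comparisons. Of the mesophyll genes (3), RBCS1A was lower in darkness in WT leaves (adjusted p = 0.042), a call lost under 13 alternatives. Of the apex and boundary genes (6), CLV3 was higher in darkness in WT leaves (log2 0.80, adjusted p = 0.031), a call lost under 5 alternatives. The shares of all probe sets called in each comparison are given with the members.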

Additional observations from a re-analysis of the deposited data

How the results depend on the processing

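Of 50 member values (10 genes in 5 comparisons), 11 passed the test, and 9 of these kept their call under every alternative, the exceptions being ORS1 and ANAC102 in darkness between genotypes. The count of members called between genotypes in light, 1 in the main setting, was 3 with quantile normalization, 2 with median centring, 2 without probe sets under a mean of 20, and 1 to 2 with each array left out. The count in darkness, 2 in the main setting, was 0 to 2 with each array left out, and it was 0 without WT dark replicate 1 or dcl1-9 dark replicate 1. The cause was not tested. With an array left out, a group has fewer arrays and a wider error.

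The replicate numbers were checked as possible pairs. Same-numbered arrays of different groups had correlations of their deviations of 0.03 to 0.34, and differently numbered arrays -0.32 to 0.12. Not every pair exceeded 0.1, so the numbers were not taken as pairs, although 12 of 12 arrays were closest on average to their own number. The paper's principal component plot also assigns an axis to distance among its biological replicates. Whether same-numbered arrays share a batch was not tested. With the replicate block, members called between genotypes became 4 in light (ANAC032, adjusted p = 0.039, ANAC102, NAP, 0.0097, and ORE1, 0.031) and 3 in darkness (ORE1 gained, 0.027), and 5 in the dcl1-9 dark response (ANAC102 gained, lower, 0.041), with no change in the WT dark response or the difference of the responses. The probe sets called became 2937 higher and 2129 lower in light, against 1647 and 926 without it, 2520 and 1818 in darkness, against 1238 and 839, and 21 and 56 for the difference of the responses, against 4 and 25.

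Over all probe sets, with an array left out, calls between genotypes ranged from 528 to 2067 higher and 247 to 928 lower in light, and from 239 to 1571 higher and 202 to 1045 lower in darkness. For the difference of the responses they ranged from 1 to 13 higher and 7 to 32 lower. The compared groups alone gave 1010 higher and 358 lower in light. With log2(value + 16) the difference of the responses was called for 16 higher and 50 lower, and without the intensity trend for 3 and 12.

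Signs changed in 44 of 925 recomputed member values, all of values not past the test. They were the difference of the responses of NAP (0.14) and NAC1 (-0.0093) with log2(value + 16), those of ORE1 (-0.0879) and NAC1 (-0.0162) with quantile normalization, NAC1 between genotypes with quantile normalization (0.0712 in darkness and 0.0874 in light), and ATAF1 dark over light in WT with median centring (-0.0208). The other 37 came with an array left out, where the difference of the responses ran from -0.17 to 0.21 for ORE1, -0.14 to 0.26 for JUB1, -0.29 to 0.12 for ANAC102, -0.39 to 0.10 for NAC016, -0.19 to 0.26 for NAC1 and -0.39 to 0.0827 for CUC2. Between genotypes in light the values ran from -0.0149 to 0.11 for ORS1, -0.0502 to 0.41 for NAC016 and -0.30 to 0.0307 for NAC1. In darkness they ran from -0.23 to 0.26 for NAC016 and -0.32 to 0.10 for NAC1. Dark over light ran from -0.33 to 0.14 for CUC2 in dcl1-9, and in WT from -0.0633 to 0.18 for CUC2 and -0.12 to 0.0829 for ATAF1. Of 75 calls among the related genes, 45 were kept under every alternative.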
